A study of Danio rerio with 12 samples.

Results

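The vehicle embryos were whole zebrafish embryos at 3 days after fertilization that had been kept in 0.1% dimethyl sulfoxide (DMSO), a solvent used to carry test compounds into water. They were taken as every library labelled with that solvent alone, which gave 3 of the 12 libraries of the series, 1 each from clutches 1, 2 and 4. The embryos were wild type (WT) of the AB laboratory strain, and all groups were exposed from 2 to 4 hours after fertilization until 3 days. The other 9 libraries, again 1 per clutch and group, came from AB embryos in 30 µM testosterone, in 30 µM testosterone with 5 µM calindol, or in 30 µM testosterone together with 100 µM EGCG, the main catechin of green tea. The study set these exposures against the vehicle to find genes that respond to testosterone through the receptor GPRC6A. The labels do not say whether the exposed groups also held DMSO, how many embryos made up a library, or how the clutches were bred. The values are those of solvent-treated embryos and not of untreated ones.

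A zebrafish hatches at about this age, swims in bursts, sees, and still lives on its yolk. Fast fibres fill most of the trunk, the syncytial layer around the yolk and the liver pack yolk lipid into lipoproteins, and a skin of keratin-rich cells covers the body. In the eye the lens has filled with crystallins, and the first photoreceptors make their pigments. RNA from a whole embryo mixes all these tissues, so fewer cells of a type and less RNA per cell cannot be told apart in any value below.

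The 3 vehicle libraries held 18950351, 18908888 and 20799427 counts for clutches 1, 2 and 4, within the 8181295 to 22510680 of the series. Values are given as CPM, the counts of a gene scaled to a common total per library. CPM is not divided by transcript length, and a long transcript yields more reads than a short one at the same number of molecules. An order by CPM is therefore an order of reads, and the text describes shares of the counts rather than numbers of transcripts. The log2 CPM of 14213 genes with a mean of at least 5 CPM correlated at 0.991 between clutches 1 and 2, at 0.993 between clutches 1 and 4 and at 0.993 between clutches 2 and 4. These correlations are taken over genes within a pair of libraries. The labels name clutches and 3 biological replicates but no pools. A p-value below sets a difference between groups or clutches against the remaining spread between libraries, all 12 or the 9 exposed ones.

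Of the 32520 genes in the table, 24921 had at least 1 count in a vehicle library and 17737 reached 1 CPM in all 3. The latter held 17199 of the 25432 genes annotated as protein coding. Another 3443 protein-coding genes had no count in any vehicle library, and 2598 of them had none in any of the 12 libraries. The counts were spread over many genes. The 10 genes of highest mean CPM held 9.03%, 9.19% and 8.83% of the counts in clutches 1, 2 and 4 (9.02% ± 0.179, SD, n = 3). The 100 highest held 24.6% ± 0.193 (SD, n = 3), and 796 genes were needed for 50% and 7303 for 90% of the mean CPM. Genes at a mean of 1000 CPM or more numbered 85.

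Fast muscle led this order. Reads of myhz1.1, a fast myosin heavy chain, were at 18341, 19180.0 and 18443 CPM in clutches 1, 2 and 4, and those of actc1b, an alpha-actin of muscle, at 18149, 16983 and 17037 CPM. The symbol myhz1.1 belongs to 2 identifiers in the table, and the values are those of ENSDARG00000067990. Its neighbours myhz1.2, myhz1.3 and myhz2 are near-identical copies, so the split of reads among these genes is uncertain. Next came atp2a1, the calcium pump of the fast fibre's reticulum, at 8222, 8008 and 7700 CPM. The myosin gene myhz1.2 stood at 6856 ± 252 CPM, the calcium buffer gene pvalb1 at 6710.0 ± 64.4, the tropomyosin gene tpma at 5924 ± 59.3 and the creatine kinase gene ckmb at 5491 ± 89.0 (SD, n = 3 for each).

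Only 3 of the 10 genes were not on the list of skeletal muscle genes. One was apobb.1, an apolipoprotein B that forms the core of lipoprotein particles, at 7291, 8235 and 7364 CPM. Another was eef1a1l1, which brings aminoacyl-tRNA to the ribosome, at 7767, 7423 and 7368 CPM. The third was krt4, a keratin of the outer skin, at 5349, 7081 and 5550 CPM. Clutch 2 was high for apobb.1 and krt4, and the other two clutches lay close together for both.

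**Figure D1:**
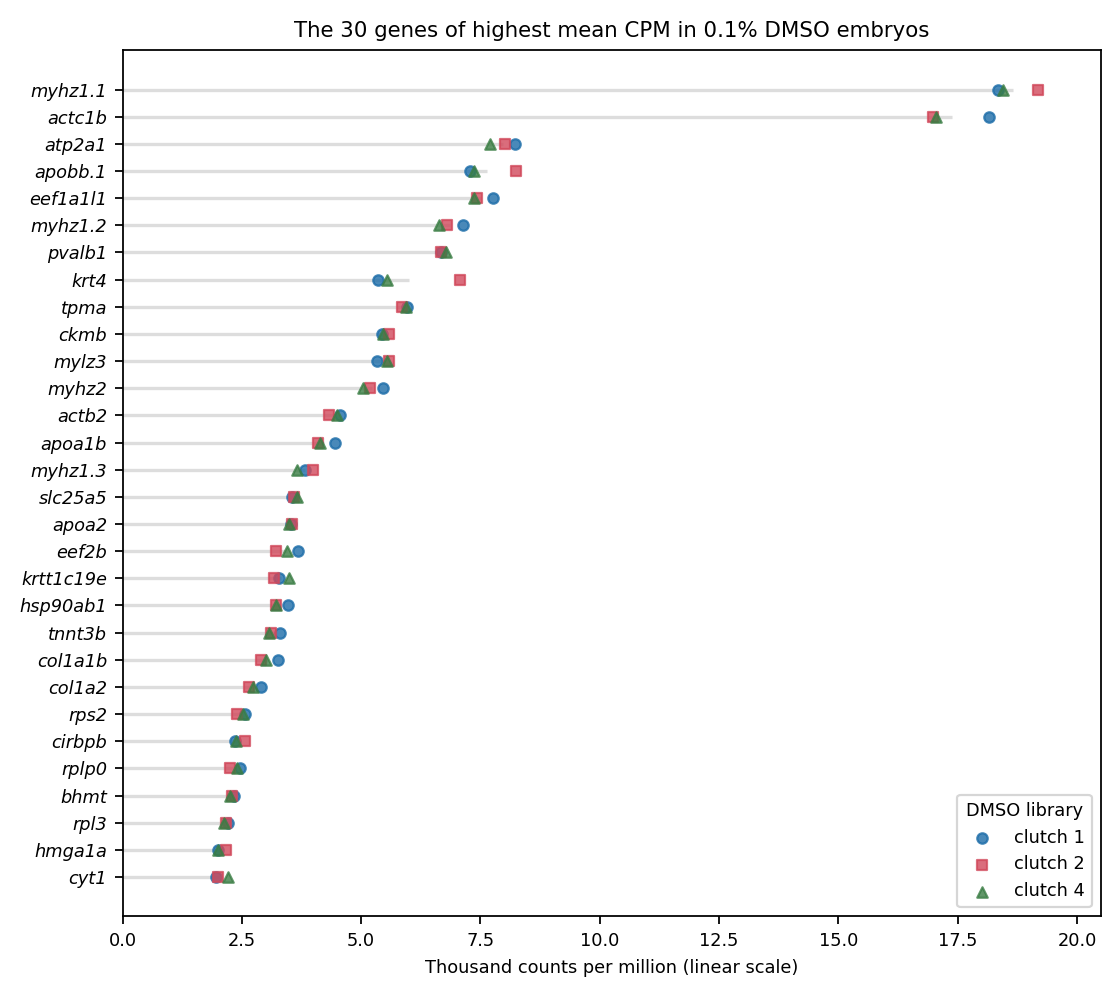
CPM (linear axis, marked in units of 1000) of the 30 genes of highest mean in the vehicle embryos, with 1 point per library (circle, clutch 1; square, clutch 2; triangle, clutch 4) and a grey line up to the mean. The points of myhz1.1 and actc1b lie between 16983 and 19180.0 CPM, far above the rest, and the points of krt4 lie from 5349 to 7081 CPM, with clutch 2 highest.

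Among the 100 genes of highest mean CPM, 18 were on the skeletal muscle list, 19 were cytosolic ribosomal proteins, 5 were collagens, 5 were keratins and 4 were apolipoproteins. A single gene among the 100 belonged to the list of photoreceptor genes, namely opn1sw1, the ultraviolet cone opsin, at 1969, 2014 and 2125 CPM. Other high genes on none of the lists were slc25a5, which exchanges ADP and ATP across the inner mitochondrial membrane, cirbpb, a cold-inducible RNA-binding protein, bhmt, which remethylates homocysteine with betaine, and hmga1a, a chromatin protein. In all, 66 of the 100 belonged to at least 1 list.

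Genes annotated as protein coding held 99.1% of the counts in each vehicle library. Genes annotated as lincRNA, long intergenic noncoding RNAs, held 0.501% ± 0.00389 (SD, n = 3), and 278 of 1493 reached 1 CPM in all 3 libraries. The highest of them, CR383676.2, was at 1611, 1673 and 1626 CPM, far above the next, oip5-as1, a conserved noncoding RNA at 281, 312 and 301 CPM. The class processed_transcript held 0.251% of the counts, led by rps20 at 1011 CPM, which encodes a ribosomal protein whatever its annotation. The 672 genes annotated as antisense together held 0.0408%, and since the strand setting of the counting is not given in the sources used here, reads of such a gene and of its partner on the other strand may not have been separated.

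Of 18 gene families, the cytosolic ribosomal proteins held the largest share, 5.45% ± 0.126 of the counts (SD, n = 3), with summed values of 55687, 53201 and 54736 CPM in clutches 1, 2 and 4. They build the large and small subunits of the ribosome, and 70 of 83 members reached 1 CPM in all 3 libraries. The highest members were rps2 at 2492 ± 88.1 CPM, the stalk protein gene rplp0 at 2370 ± 110 CPM and rpl3 at 2169 ± 42.2 CPM (SD, n = 3 for each). Initiation and elongation factors of translation held 2.29% ± 0.0456, led by eef1a1l1 and by eef2b, which moves the ribosome along the message, at 3687, 3207 and 3436 CPM. By contrast, the 74 mitochondrial ribosomal proteins held 0.169% ± 0.00227 (SD, n = 3), and their highest member, mrpl12, was at 67.1, 65.6 and 69.6 CPM.

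Actins held 2.67% ± 0.0802, and 9 of 9 members reached 1 CPM in all 3 libraries. After actc1b came actb2 and actb1, the actins of every cell's skeleton, at 4457 ± 117 and 1926 ± 58.5 CPM (SD, n = 3 for each). Tubulins held 0.515% ± 0.00305, led by tubb4b at 1128 ± 32.5 CPM. Subunits of the oxidative phosphorylation complexes that the nucleus encodes held 1.38% ± 0.0281, led by the ATP synthase genes atp5f1b at 1763 ± 63.0 CPM and atp5fa1 at 1424 ± 99.3 CPM. Proteasome subunits held 0.354% ± 0.00746, with psmd1 of the regulatory cap highest at 270.5, 236 and 240 CPM.

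Matrix, lipid transport and skin made up the next families. Collagens held 2.01% ± 0.0692 of the counts (SD, n = 3), and 49 of 55 members reached 1 CPM in all 3 libraries. The chains of collagen I led, with col1a1b at 3256, 2893 and 3004 CPM and col1a2 at 2908, 2653 and 2740 CPM, and col2a1b, a chain of the cartilage collagen, followed at 1168 ± 48.9 CPM. Apolipoproteins held 2.09% ± 0.0815, and leaving out 2 apobec genes, whose symbols match but which encode deaminases, gave 2.08%. After apobb.1 their highest members were apoa1b and apoa2, proteins of high-density particles, at 4224 ± 194 and 3524 ± 30.8 CPM (SD, n = 3 for each). Keratins held 1.54% ± 0.0800, with krtt1c19e at 3320 ± 158 CPM and cyt1 at 2051 ± 130 CPM after krt4.

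Heat shock proteins held 0.603% ± 0.0167 (SD, n = 3), of which hsp90ab1, a constitutive chaperone, made up most with 3467, 3206 and 3221 CPM. The count for this family includes hspg2, a matrix proteoglycan matched by its symbol, and without it and hspbp1 the share was 0.582%. Globins held 0.194% ± 0.0103, led by the embryonic alpha-type gene hbae3 at 1218, 1182 and 1157 CPM. Genes of the hox clusters, which pattern the body axis, held 0.0664% ± 0.00226 in all, and 42 of 48 reached 1 CPM in each library, with hoxb3a highest at 74.4, 80.4 and 71.6 CPM. The 343 genes named znf held 0.436% ± 0.00570, led by znf106a at 284 ± 14.2 CPM.

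Families of immune genes had few reads. The 24 major histocompatibility genes summed to 92.0 ± 1.66 CPM, of which mhc1zba made up 39.4, 36.9 and 40.1 CPM. The finTRIM and gimap genes, families of the fish immune system, summed to 176 ± 1.09 CPM over 79 members, of which 19 reached 1 CPM in all 3 libraries. NLR-type and other immune receptor genes summed to 74.1 ± 3.56 CPM over 37 members, of which 16 had no count in any vehicle library (SD, n = 3 for each sum).

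Marker genes of 35 tissues and cell types together held 17.3% ± 0.186 of the counts (SD, n = 3), each gene counted once. Since the lists differ in length and in the lengths of their transcripts, their sums describe these lists and are not measures of tissue size. Skeletal muscle held 10.1% ± 0.120 with 32 genes, and its sums of 101593, 101088 and 99313 CPM differed by a factor of 1.02 between the highest and the lowest clutch. The lists that followed were the lipoprotein genes of the yolk syncytial layer at 1.71% ± 0.0774, the epidermis at 1.63% ± 0.0792, the liver at 0.736% ± 0.00391 and cartilage at 0.651% ± 0.0247 (SD, n = 3 for each). The liver list was led by apoa2, also counted among the apolipoproteins, at 3524 ± 30.8 of a sum of 7355 ± 39.1 CPM (SD, n = 3). Which tissue its reads came from was not tested. Next were the iron carrier gene tfa at 962, 1049.9 and 974 CPM and rbp4, the plasma carrier of retinol, at 835, 838 and 866 CPM. Cartilage was led by col2a1b, col11a2 and col9a2, chains of its fibrils, and the last stood at 784, 693 and 736 CPM. All 16 genes of the liver list and 15 of 16 of the cartilage list reached 1 CPM in each library.

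**Figure D2:**
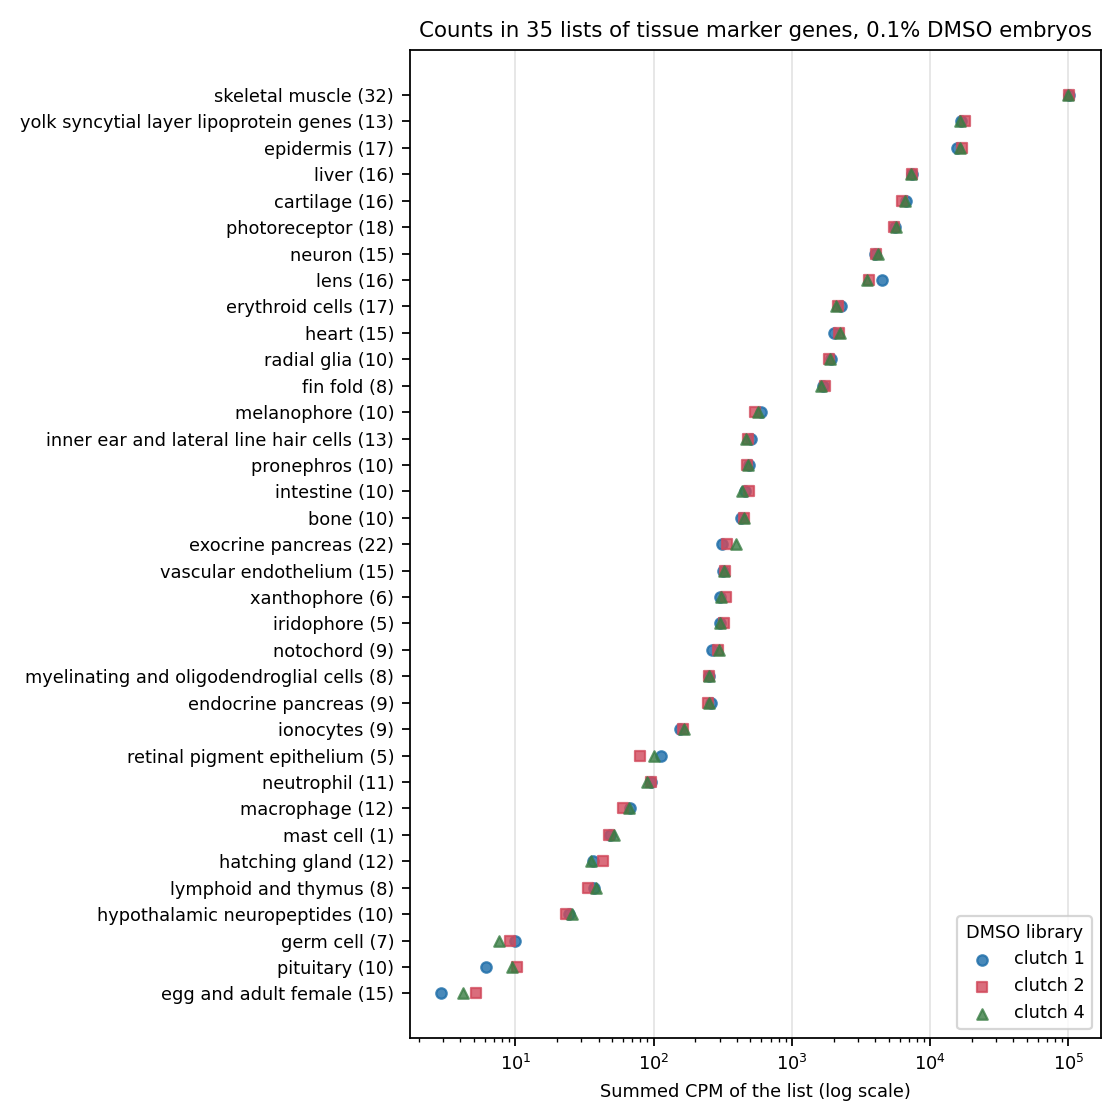
Summed CPM (log axis) of 35 lists of marker genes in the 3 vehicle libraries (circle, clutch 1; square, clutch 2; triangle, clutch 4), with the number of genes of each list in brackets. The lists span from skeletal muscle at 99313 to 101593 CPM to genes of the egg and the adult female at 2.90 to 5.18 CPM, and the 3 points of most lists overlap.

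The photoreceptor and lens lists held more reads than the heart list. Photoreceptor genes summed to 5526, 5441 and 5674 CPM, led by opn1sw1, and the green cone opsin gene opn1mw1 stood at 776, 780 and 826 CPM. The lens list summed to 4499, 3621 and 3499 CPM, with clutch 1 above the other two. Heart genes summed to 2017, 2205 and 2229 CPM, but ttn.2, a titin that skeletal muscle also uses, made up most of this at 1552, 1716 and 1780 CPM. Without it the heart list came to 465, 489 and 450 CPM, led by myh7 at 213 ± 11.2 CPM and myh7l at 79.7 ± 2.705 CPM (SD, n = 3 for each), both myosin heavy chains.

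Neuron genes summed to 4012, 4037 and 4159 CPM, and 15 of 15 reached 1 CPM in each library. The RNA-binding genes elavl4 and elavl3, early marks of neurons, led at 540.0 ± 19.8 and 472 ± 28.7 CPM, before stmn1b at 415 ± 17.9 CPM, which destabilizes microtubules (SD, n = 3 for each). Radial glia, the stem and support cells of the fish brain, summed to 1905, 1855 and 1891 CPM, led by the glutamate transporter gene slc1a2b at 604.5, 576 and 654 CPM. Genes of myelinating and oligodendroglial cells summed to 253, 253 and 253 CPM, of which mbpb, which encodes myelin basic protein, made up 101, 98.8 and 100.4 CPM. The hair cell and inner ear list came to 508, 480.1 and 469 CPM, of which stm, the starmaker protein of the ear stone, gave 281, 252 and 241 CPM. Small endocrine groups were near the floor. Pituitary genes summed to 6.12, 10.3 and 9.52 CPM, of which gh1, growth hormone, made up 3.48, 5.50 and 4.23 CPM. Of the 10 pituitary genes, 2 were listed at 0 in all 12 libraries. Hypothalamic peptide genes summed to 24.4, 23.4 and 25.7 CPM, led by trh at 8.34, 7.51 and 8.65 CPM.

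Erythroid genes summed to 2263, 2170 and 2078 CPM, most of it globin. The beta-type globin gene hbbe1.1 stood at 445, 294 and 256 CPM, high in clutch 1, while hbbe1.3 stood at 220, 252 and 252 CPM, low in the same clutch. The embryonic globin genes are near-identical in pairs, so reads may have been split between them. The lists of white cells had low sums, and their members mpeg1.1 and lyz were listed at 0, a value whose cause was not tested. Macrophage genes summed to 64.8 ± 4.04 CPM with csf1ra, a growth factor receptor that pigment cells share, at 31.7, 27.5 and 32.2 CPM. Neutrophil genes summed to 93.9 ± 3.35 CPM with mpx, myeloperoxidase, at 26.2, 21.9 and 24.2 CPM, and genes of lymphoid cells and thymus to 36.0 ± 2.53 CPM, led by runx3, which other tissues also express (SD, n = 3 for each sum). The antigen receptor recombinase gene rag1 was at 1.95, 3.07 and 3.46 CPM, and foxn1, the factor of the thymic epithelium, at 2.64, 3.17 and 3.65 CPM.

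Marker lists of 3 kinds of pigment cell had reads, and the xanthophore list shares csf1ra with the macrophage list. Melanophore genes summed to 598, 544 and 564 CPM, led by tyrp1b and pmela of the melanosome at 201 ± 12.7 and 184 ± 8.12 CPM. Xanthophore genes summed to 300.4, 335 and 309 CPM with gch2 of pteridine synthesis at 150.0, 171 and 152 CPM. Iridophore genes summed to 304, 322 and 300 CPM with gpnmb at 191 ± 7.68 CPM, a gene that macrophages and melanophores also use. Vascular endothelium summed to 315, 328 and 322 CPM with the junction gene cdh5 at 84.8, 91.6 and 86.9 CPM, and the pronephros, the larval kidney, to 491, 476 and 484 CPM with the bicarbonate cotransporter gene slc4a4a at 176, 178 and 177 CPM (SD, n = 3 where given).

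The lists of the pancreas and the intestine had lower sums than the liver list, and no other age was measured. The insulin gene ins, on the endocrine list, was listed at 0, as described below. Exocrine pancreas genes summed to 315, 338 and 396 CPM, with the trypsin gene prss1 at 93.7, 95.9 and 117 CPM and prss59.2 at 64.2, 71.7 and 83.2 CPM, and clutch 4 was the highest for both. Intestine genes summed to 461, 486 and 437 CPM, led by the fatty acid binding gene fabp1b.1 at 183, 194 and 151 CPM. The endocrine pancreas list came to 252 ± 5.87 CPM, almost all from neurod1, a factor that neurons share, and the 8 others summed to 26.9 ± 1.46 CPM (SD, n = 3 for both) with the somatostatin gene sst1.1 at 10.6, 11.95 and 11.97 CPM. Genes of the hatching gland, which dissolves the egg envelope, summed to 36.5, 43.1 and 35.0 CPM. Of this, npsn is a protease that neutrophils also make, and the 11 others came to 16.4, 23.6 and 16.8 CPM. On this list, 4 of 12 genes were listed at 0 in all 3 vehicle libraries. The hatching enzyme gene he1.1 stood at 2.85, 6.98 and 3.32 CPM, highest in clutch 2.

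Skeleton and fins were represented by col10a1a of bone at 372.5, 392 and 395 CPM, by the actinodin genes and2 and and1 of the fin fold at 774 ± 39.8 and 490 ± 11.5 CPM, and by epyc of the notochord list at 215, 246 and 252 CPM. Ionocyte genes, of the skin cells that move salts, summed to 161 ± 6.74 CPM with carbonic anhydrase ca2 at 57.1, 64.1 and 67.0 CPM. Germ cell genes summed to 9.87, 9.15 and 7.64 CPM, of which ddx4, the vasa helicase, made up 4.75, 4.12 and 3.08 CPM. Genes of the egg and of the adult female were at 2.90, 5.18 and 4.18 CPM in sum over 15 genes, and 5 of them, among which were the vitellogenin genes vtg2, vtg4, vtg5 and vtg6, had no count (SD, n = 3 where given).

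Of genes that report a state rather than a tissue, proliferation genes summed to 2709, 2657 and 2535 CPM, with mki67 at 442, 448 and 397 CPM and the replication clamp gene pcna at 311, 311 and 300.5 CPM. Clock genes summed to 888, 962 and 940 CPM, led by the repressor genes nr1d2b at 165 ± 7.95 CPM and per3 at 121 ± 6.17 CPM (SD, n = 3 for each). Heat shock and unfolded protein response genes summed to 1819, 1806 and 1766 CPM, of which the reticulum chaperones hspa5 and hsp90b1 led. Immediate early genes summed to 418, 429 and 373 CPM with jun at 110, 98.1 and 106 CPM. Genes of the stress and glucocorticoid response summed to 317, 331 and 340 CPM with pck1 at 85.2, 79.2 and 83.6 CPM. Interferon and inflammation genes summed to 20.6, 19.99 and 20.9 CPM, of which hamp, hepcidin, gave 6.12, 5.76 and 6.30 CPM.

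Some genes that an embryo of this age is known to express were listed at 0. The 13 proteins that mitochondrial DNA encodes were all listed at 0 in all 12 libraries. Among members of the lists, rpl12, rpl9, rps3a, rpl39, faub and rpl32 of the ribosome, the myosin light chain gene mylpfa, the cell cycle kinase gene cdk1, the insulin gene ins, the lysozyme gene lyz, the macrophage gene mpeg1.1, the erythroid factor gene gata1a and the skin gene epcam were at 0 in all 3 vehicle libraries. Of the 6 ribosomal genes, 4 were at 0 in all 12 libraries. Other list members not named here were also at 0 in the vehicle. They included 10 of 104 oxidative phosphorylation subunits and 10 of 74 mitochondrial ribosomal proteins. So did 8 of 56 proteasome subunits and 8 of 81 translation factors. Genes that every cell uses are among the genes at 0, so a 0 in this table is given only as listed at 0, and its cause was not tested. Genes at 0 add nothing to the sums above.

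The vehicle libraries differed little from each other. For each of the 14213 genes at a mean of 5 CPM or more, the spread was taken as the range of log2(CPM + 0.5) over the 3 libraries, a scale that understates the differences of low genes. The median range was 0.18, a ratio of 1.13 between the highest and the lowest clutch, and 22.2% of the genes had a range under 0.1. The range was 0.42 at the 90th and 0.75 at the 99th percentile. It shrank with the number of reads, from a median of 0.31 among 2711 genes at 5 to 10 CPM to 0.18 at 10 to 100 CPM, 0.10 at 100 to 1000 CPM and 0.09 among the 85 genes above.

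The same range was wider in the exposed groups over the same 14213 genes. Its median was 0.26 in testosterone, 0.27 in testosterone with calindol and 0.21 in testosterone with EGCG. These genes were chosen by their vehicle mean alone. Genes near the floor in an exposed group stayed in and genes high only there were left out, which favours a narrow vehicle range. The common biological coefficient of variation, the spread between replicates that edgeR estimates beyond counting error, was 7.86% over the 3 vehicle libraries. It was 17.2% in testosterone, 16.4% with calindol and 9.09% with EGCG (20237 genes, 3 libraries each). The difference between these spreads was not tested. Depth was lowest in an EGCG library, at 8181295 counts, and its part in these values was not tested.

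**Figure D3:**
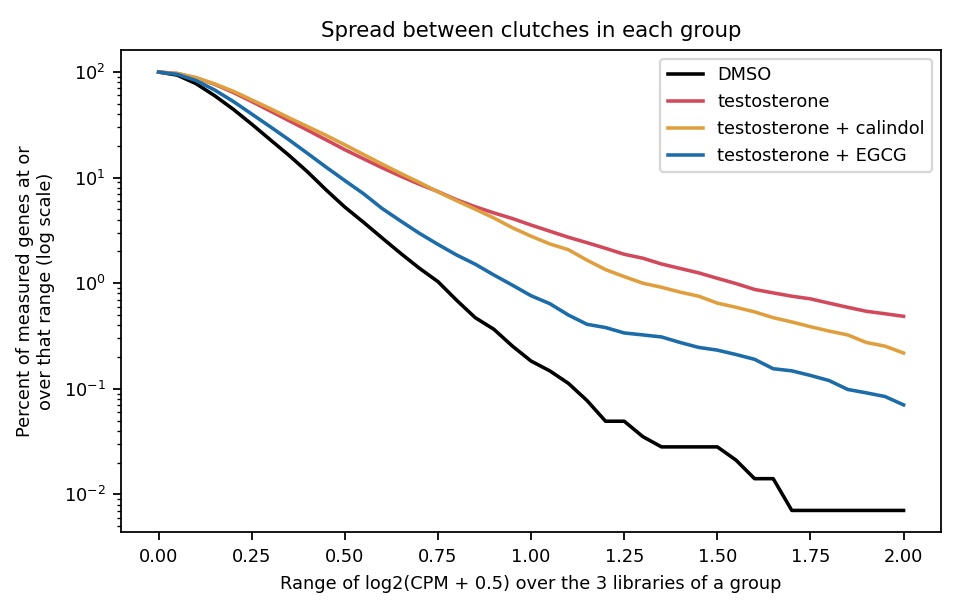
Percent of 14213 genes (log axis) whose range of log2(CPM + 0.5) over the 3 libraries of a group was at or over the value on the horizontal axis, with 1 line per group. The line of the vehicle embryos is the lowest beyond a range of about 0.1. At a range of 1 it stands at 0.183% of the genes. The genes were chosen by their vehicle mean, which favours a low vehicle line.

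Among genes at 100 CPM or more, psmb7 of the proteasome core differed least, at 150.9, 150.8 and 150.8 CPM. The next were vdac2, the channel of the outer mitochondrial membrane, at 1038, 1039 and 1040 CPM, the histone demethylase gene phf8 at 101.1, 101.0 and 100.8 CPM, sucla2 of the citric acid cycle at 259, 259 and 258 CPM, and the mRNA export gene chtopa at 150.4, 150.1 and 149.9 CPM. These genes were picked as the least variable of 3 libraries. Those libraries also enter the spread used in the test below, so the choice favours a pass. Of the 5, 4 passed the test of a difference among the 4 groups of the series described below, which 45.2% of all genes passed, and at 100 CPM or more a gene has more power to pass (adjusted p = 0.000858 for psmb7, 0.00502 for vdac2, 7.6e-05 for phf8, 0.0033 for sucla2 and 0.415 for chtopa, edgeR quasi-likelihood F-test).

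Of the 57 lists with a sum of 10 CPM or more, 41 had a ratio of at most 1.1 between the highest and the lowest vehicle library, and 5 a ratio above 1.2. Retinal pigment epithelium had the widest of these, at 112, 79.3 and 100.1 CPM, a ratio of 1.42, from rpe65a, the isomerase of the visual cycle, at 71.9, 51.6 and 68.7 CPM and rgra, a retinal G protein receptor, at 25.3, 16.0 and 20.6 CPM. The lens list had a ratio of 1.29, exocrine pancreas 1.26, the hatching gland 1.23 and the lens crystallin family 1.22. Lens crystallins, which make the lens clear, summed to 9566, 7938 and 7868 CPM. Their highest member crybb1l1 stood at 1083, 886 and 766 CPM, crybb1l2 at 857, 686 and 665 CPM and cryba1l1 at 653.5, 497 and 562 CPM, each with clutch 1 highest. The median range over 30 crystallin genes at 5 CPM or more was 0.31, against 0.18 over all genes. Ribosomal proteins, at a median of 0.09 over 69 genes, and immediate early genes, at 0.45 over 14 genes, lay on either side. The range falls with read level, to a median of 0.10 over all genes at 100 to 1000 CPM. No genes of matched level were compared with these lists.

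A range of 1 or more, which is 2-fold or more, was found for 26 of the 14213 genes (0.183%). The 95% exact Poisson intervals of the highest and the lowest library lay apart for all 26. The genes were chosen for that gap in the same libraries, so this follows from the choice and is no support. These intervals cover counting error only. With 1 library per clutch there is no test of such a difference, and each value stands for 1 library. Most of the 26 had few reads, with 24 at a mean under 20 CPM, and the count fell to 2 when a mean of 20 CPM was asked for and rose to 231 at a mean of 1 CPM. Clutch 2 was the library farthest from the other two for 15 genes, clutch 1 for 10 and clutch 4 for 1. Leaving out clutch 1 left 4 genes with such a range, leaving out clutch 2 left 8 and leaving out clutch 4 left 19. Here the mean of 5 CPM was taken anew over the libraries kept. Among the 14213 genes, such a range lay between clutches 2 and 4 for 6 genes. It lay between clutches 1 and 4 for 8 and between clutches 1 and 2 for 20. On the threshold, the helicase gene ighmbp2 had a range of 1.00 just inside it, and cttnbp2, a partner of cortactin in neurons, one of 0.998 just outside it.

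The widest range belonged to carmil2 (ENSDARG00000056639), which links actin capping to the cell membrane, at 13.03, 2.54 and 5.96 CPM in clutches 1, 2 and 4 (95% exact Poisson intervals of 11.5 to 14.8, 1.87 to 3.37 and 4.96 to 7.11), a range of 2.16 on the log2 scale. The SUMO ligase gene pias2 stood at 2.53, 9.31 and 5.19 CPM and the guanylate cyclase gene gucy2g at 5.17, 16.6 and 13.9 CPM. Both were lowest in clutch 1, whereas carmil2 was highest there. Next came gngt2a, a G protein subunit of cones, at 10.24, 3.23 and 8.70 CPM, and uspl1, a SUMO isopeptidase, at 7.12, 2.80 and 7.79 CPM, both with a single low library, clutch 2. The transcription elongation gene supt5h stood at 5.96, 15.2 and 11.1 CPM.

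Of the 26 genes, only fosaa, a Fos transcription factor at 2.90, 6.50 and 6.88 CPM, belonged to any of the 61 lists, as an immediate early gene. The gene of most reads was hmgb1a, a chromatin protein, at 87.0, 39.9 and 72.1 CPM. Its intervals were 37.1 to 42.9 CPM in clutch 2 and 82.9 to 91.3 CPM in clutch 1, apart as for all 26. Next by reads was ctcf, the protein that bounds chromatin loops, at 35.7, 16.7 and 25.9 CPM. Genes known from the liver among the 26 were gck, glucokinase, at 10.1, 16.5 and 7.45 CPM and crp3, of the C-reactive protein family, at 6.23, 13.5 and 8.61 CPM, both highest in clutch 2. The efflux transporter gene slc47a4 stood at 4.01, 7.35 and 9.86 CPM, lowest in clutch 1. The G protein regulator gene rgs4 stood at 4.59, 10.8 and 4.81 CPM, high in clutch 2 alone, as did CABZ01088484.1 at 3.85, 8.94 and 5.00 CPM. The polarity gene pard6a, the GPI anchor gene pigm and ripor1 were lowest in clutch 2, at 3.07, 3.38 and 4.23 CPM. The remaining members of the first 20 were si:ch211-214b16.4, lowest in clutch 1 at 3.17 CPM, si:dkey-19a16.7, lowest in clutch 4 at 3.70 CPM, and the Ran-binding gene ranbp10, lowest in clutch 2 at 5.45 CPM.

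**Figure D4:**
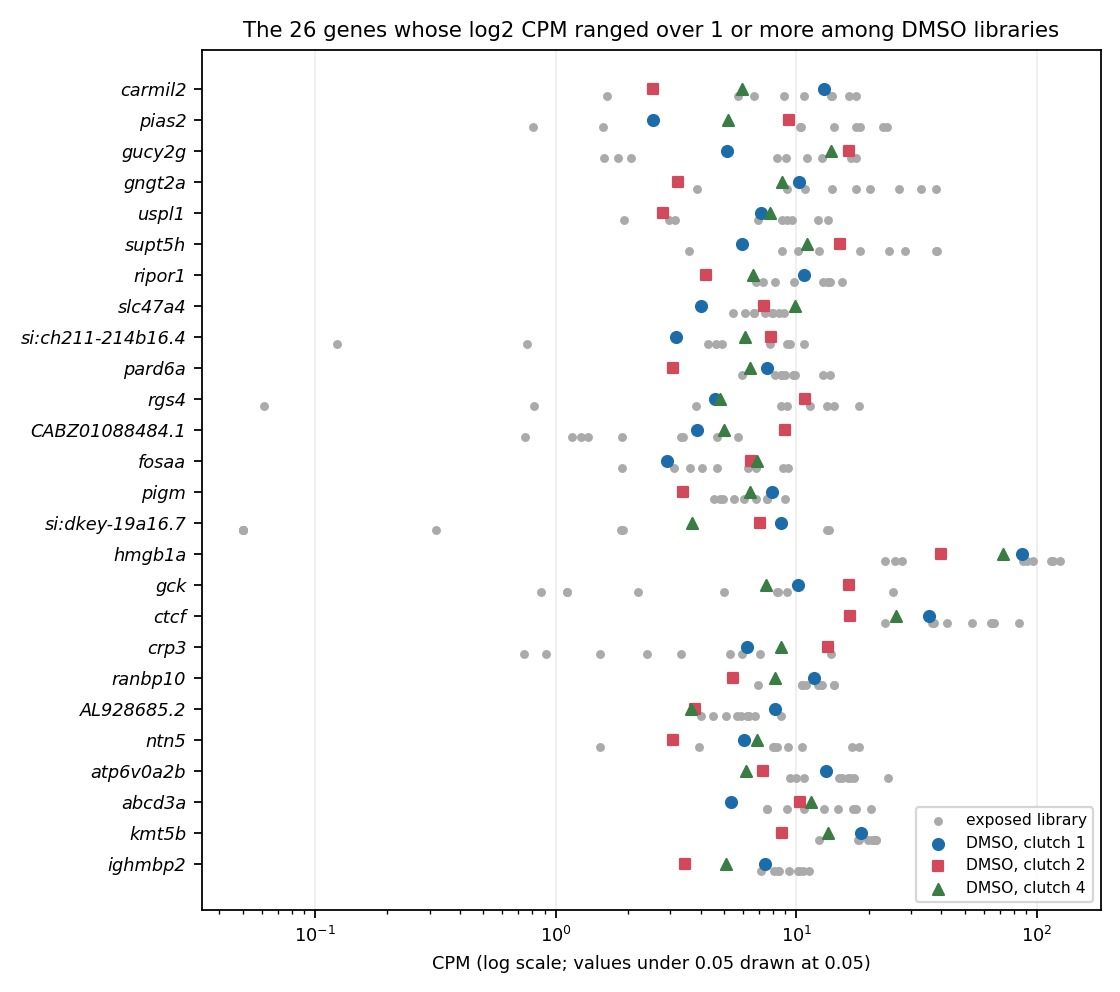
CPM (log axis) of the 26 genes whose range of log2(CPM + 0.5) over the vehicle libraries was 1 or more, in order of that range, with coloured symbols for the 3 vehicle libraries and grey points, set lower, for the 9 exposed libraries. The grey points of most genes reach beyond the vehicle libraries, as for gck, at 0.866 to 25.3 CPM in exposed libraries.

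Whether these genes follow the clutch was asked of the 9 exposed libraries, which did not choose them and hold each clutch 3 times. A clutch effect beside a group term passed an adjusted p of 0.05 for 0 of 19936 genes (0.0%, edgeR quasi-likelihood F-test). An unadjusted p under 0.05 was found for 668 genes. With 4 residual degrees of freedom this test has little power, so the 0 does not show that clutches were alike. The likelihood ratio test of DESeq2 called 28 genes, none of them among the 26. The lowest adjusted p was 3.5e-12 by that test, for wnk1a, and 0.169 by edgeR over all genes. Of the 28, akap12b and zbtb2b had vehicle ranges of 0.878 and 0.876, under the cut of 1. Both rose from clutch 1 to 2 to 4 in each group. For akap12b the values were 58.3, 85.25 and 107.5 CPM in the vehicle and 142, 192 and 303 CPM in testosterone. Both were picked after their values were seen, and their adjusted p by the edgeR test was 0.9997. All 26 were tested by edgeR, and 4 of the 26 had an unadjusted p under 0.05, against 668 of 19936 genes tested (3.35%). The test takes no account of the direction seen in the vehicle. Each of these 4 had an adjusted p of 0.9997 or more, also by edgeR. They were si:dkey-19a16.7, hmgb1a, pias2 and rgs4. Of these, hmgb1a was lowest in clutch 2 in the vehicle, and in the testosterone group it stood at 125, 27.6 and 96.7 CPM, in the calindol group at 87.5, 23.4 and 25.8 CPM and in the EGCG group at 117, 114 and 90.6 CPM for clutches 1, 2 and 4. Clutch 2 was low in testosterone, close to clutch 4 with calindol and not the lowest with EGCG. The SUMO ligase gene pias2, lowest in clutch 1 of the vehicle, was highest in clutch 1 of each exposed group, at 22.9, 10.3 and 23.7 CPM. So was rgs4, highest in clutch 2 of the vehicle, at 11.45, 14.4 and 18.2 CPM. The gene si:dkey-19a16.7, highest in clutch 1 of the vehicle, was also highest there in testosterone and with calindol, and at 0 with EGCG.

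Over all 14213 genes, the deviation of a vehicle clutch from the vehicle mean correlated at 0.0013 for clutch 1, at -0.04 for clutch 2 and at 0.07 for clutch 4 with the mean deviation of the same clutch in the exposed groups. These are correlations across genes, which share their library and its depth. A range of 1 or more was also present for 15 of the 26 genes in testosterone, 13 with calindol and 4 with EGCG. Over all 14213 genes, chosen by their vehicle mean alone, the counts were 505, 396 and 108. Of the 26, 20 lay at 5 to 10 CPM, where ranges are wider. No set of genes matched for level was compared, so these counts do not separate the 26 from other genes of few reads.

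In the gene order of the RefSeq annotation of zebrafish (assembly GRCz12tu, used only for which genes are neighbours), 23 of the 26 genes could be placed by symbol, with 12676 of the 14213 genes in all. Of these 23, 7 lay in one stretch of 19 consecutive measured genes from ighmbp2 to carmil2. The 7 were ighmbp2, kmt5b, which methylates histone H4, ranbp10, pard6a, ripor1, ctcf and carmil2. The stretch was noticed after the values were seen, so its values are a description with no test. Of the 12 other genes in it, 11 were lowest in clutch 2 and 12 were highest in clutch 1, while 34.2% of all measured genes were lowest in clutch 2. Examples are necab2, a calcium-binding protein of neurons, at 105, 64.5 and 83.8 CPM, calb2a, calretinin, at 44.01, 25.3 and 39.9 CPM, and got2a, the mitochondrial aspartate aminotransferase, at 36.0, 21.3 and 27.9 CPM. The exception was hydin, a gene of motile cilia, at 7.23, 7.03 and 6.54 CPM.

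**Figure D5:**
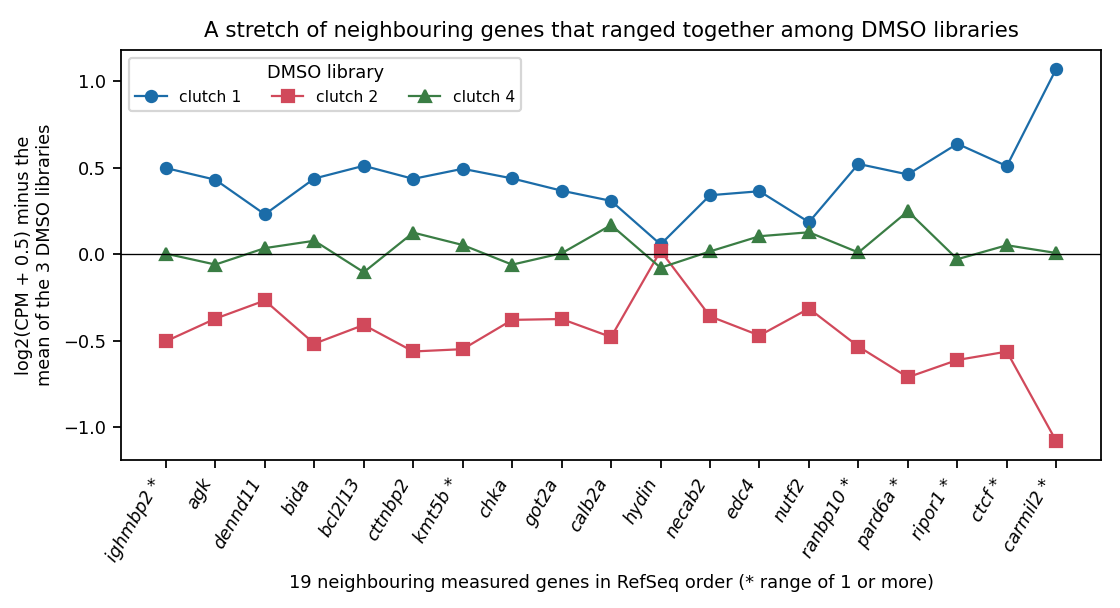
Deviation of log2(CPM + 0.5) from the mean of the 3 vehicle libraries for 19 neighbouring measured genes, in RefSeq order along the horizontal axis without distances (blue circles, clutch 1; red squares, clutch 2; green triangles, clutch 4). Clutch 1 lies above and clutch 2 below clutch 4 for all genes but hydin, and the asterisk marks the 7 genes of a range of 1 or more.

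Over the 19 genes the median deviation from the vehicle mean was 0.44 in clutch 1, -0.48 in clutch 2 and 0.02 in clutch 4, on the log2 scale. In the exposed libraries the same median was 0.81, 0.57 and 0.67 in testosterone for clutches 1, 2 and 4, -0.08, 0.28 and 0.71 with calindol, and 0.74, 0.70 and 0.57 with EGCG. Clutch 2 was thus the lowest in testosterone but not with calindol or with EGCG, and 8 of the 9 exposed libraries lay above the vehicle mean. When all runs of 15 consecutive measured genes were compared, the run from bcl2l13 to carmil2 had the largest range of the median deviation over the vehicle libraries, 0.918, and the next run that did not overlap it, from isl1 to ubb, had 0.327. That run holds pias2 and was highest in clutch 2. The median over 12326 runs was 0.0579 and the 99th percentile 0.193. The RefSeq build is not the one the reads were aligned to, and whether the genes lie as close in the genome of these embryos was not tested.

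The level of many baseline genes differed among the 4 groups of the series. With the group as a term in the edgeR quasi-likelihood F-test over all 12 libraries, 9156 of 20237 genes (45.2%) had an adjusted p under 0.05. Of the 100 genes of highest mean CPM in the vehicle, 82 passed, and such genes have more reads and so more power to pass. Of the first 10, all but eef1a1l1 and krt4 passed (adjusted p = 0.59 and 0.612, edgeR). The mean of myhz1.1 was 18654.5 CPM in the vehicle, 17792 in testosterone, 18464 with calindol and 13869 with EGCG (adjusted p = 0.0016, edgeR). That of pvalb1 was 6710.0, 7575, 9453 and 7495 CPM in the same order (adjusted p = 0.000333, edgeR).

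The calls for atp2a1 and ckmb were lost without 1 EGCG library, with an adjusted p of 0.0811 for atp2a1 and 0.0597 for ckmb without clutch 1 of that group and 0.0506 for ckmb without clutch 2. The exposed libraries of krt4 ran from 2120 to 12240 CPM, and without clutch 1 of the calindol group its adjusted p was 0.0019 (edgeR for all). Among the lists of highest share, and against 45.2% of all genes, the calls were 25 of 27 tested for skeletal muscle, 61 of 70 for cytosolic ribosomal proteins, 6 of 9 for actins, 37 of 71 for translation factors, 19 of 22 for apolipoproteins and 44 of 49 for collagens. Summed muscle genes were at 100664 ± 1198 CPM in the vehicle, 96563 ± 6319 in testosterone, 107605 ± 4062 with calindol and 82652 ± 5834 with EGCG. Ribosomal proteins were at 54542 ± 1255, 57952 ± 1817, 69380 ± 1944 and 59616 ± 3734 CPM, and collagens at 20068 ± 692, 17393 ± 733, 15954 ± 788 and 13901 ± 321 CPM, in the same order (SD, n = 3 for each). Of the 26 genes of wide range, 12 passed, beside 45.2% of all genes, and 7 passed without clutch 2 of the EGCG group. They were chosen for a wide spread between vehicle libraries, which enters this test and works against a pass. The comparison with all genes is therefore biased by the choice.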

How the data were processed

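The deposited values are whole-number read counts per gene, 1 column per library. Per the submitters' processing notes, the authors' tools were Trim Galore 0.6.10, STAR 2.7.1a and featureCounts with the genome build GRCz11. The annotation, the strand setting and the rule for multi-mapping reads are not given in the sources used here. Libraries were directional, made from poly(A) RNA per the labels' protocols. Groups and clutches came from the labels.

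CPM was computed by the column total, and the log2 scale used a pseudocount of 0.5. Group and clutch terms were tested with edgeR 4.0.16 (R 4.3.3) by quasi-likelihood F-tests, TMM scaling and filterByExpr with a minimum count of 10, with Benjamini-Hochberg adjustment over all genes tested. Fits were tested on simulated data. The clutch test used the 9 exposed libraries with a group term (4 residual degrees of freedom) and the group test all 12 (8 residual degrees of freedom). Alternatives were DESeq2 1.42.0, other filters, scalings, pseudocounts and minimum levels, clutch as a block, and each library left out.

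Named genes were the 10 of highest CPM, the 3 highest members of each list, list members at 0, the 20 of widest and 5 of narrowest range, and the 10 of lowest clutch p. Other genes named (slc25a5, cirbpb, bhmt, hmga1a, oip5-as1, rag1, akap12b, zbtb2b and the genes of the stretch of neighbours among them) were chosen after their values were seen. Genes and lists were chosen with earlier results of these data known. Lists match by symbol. Transcript lengths and sequences were not used here. A member of the photoreceptor list is not reported here. The labels give the same clutch numbers in each group. The main test among groups did not pair libraries by them, and clutch as a block was an alternative. The correlations of clutch deviations between vehicle and exposed groups were 0.0013, -0.04 and 0.07. They are taken across genes of mostly small range and cannot decide whether libraries of the same number are paired. Counting intervals are exact Poisson intervals of 95%, which cover counting error only, and reads without molecular identifiers are not independent molecules.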

Additional observations from a re-analysis of the deposited data

How the results depend on the processing

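Of 738 values recomputed under other settings, 688 stayed within the limits set for a count or value or kept their side of the threshold. Another 46 moved, 3 lost a call and 1 gained one. The direction of a difference was not compared. Leaving out 1 of 3 libraries moves a mean by less than its SD whatever the data, so such means say nothing of stability. The count of genes with a range of 1 or more depended most on the setting. It was 231 at a mean of 1 CPM, 2 at a mean of 20 CPM and 9 with a pseudocount of 2. Without 1 vehicle library it was 4 to 19, with the mean taken anew over the libraries kept. The clutch effect gave 28 genes with the DESeq2 likelihood ratio test and 1 without a filter on low counts, and 0 without any 1 library. The difference among groups gave 8630 genes with clutch as a replicate block and 7604 to 9251 without 1 library. Blocking by clutch changed no call among the 10 genes of highest CPM, and other single genes were not compared under it. With the block, 18 of 39 lens crystallins, 7 of 44 hox genes and 15 of the 26 genes of wide range were called, against 12 of these 26 without it. In the test among groups, against 45.2% of all genes, 8 of 44 hox genes were called (5 to 14 without 1 library), 24 of 39 lens crystallins (11 to 25) and 13 of 63 mitochondrial ribosomal proteins (7 to 14). Values per kilobase were not run, as transcript lengths were not used here. Depth limits genes under about 5 CPM, where ranges are wide.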
